A study of Mus musculus with 5 samples.

Results

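The genes described here encode ion channel subunits, chosen by symbol: every autosomal protein-coding gene of mouse build mm9 whose symbol begins Kcn (potassium channels), Scn and a digit (sodium channels), Cacn (calcium channels), Gria, Grik, Grid or Grin (glutamate receptors) or Gabr (GABA receptors). The rule found 171 gene models with 167 symbols among 21410 autosomal protein-coding genes. A further 7 genes with such symbols lie on chromosome X or Y and were left out, and 8 of the gene models share their symbol with another (Kcnb2, Kcnh8, Scn8a and Grinl1a). There were 94 potassium channel genes, 25 calcium channel genes, 21 glutamate receptor genes, 16 GABA receptor genes and 15 sodium channel genes. Of all of them, 37 encode auxiliary subunits or related proteins and the other 134 mostly pore-forming subunits. Many are known from neurons, but the symbols also take in channels of muscle (Scn4a, Cacna1s) and of lymphocytes (Kcna3, Kcnn4), and a few proteins that are not channels (Grina, Grinl1a, Grid2ip, Kcnrg).

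Voltage-gated potassium, sodium and calcium channels open when the potential across the membrane changes, and together they shape the electrical impulses of nerve and muscle. Glutamate and GABA receptors are pores opened by a transmitter and carry fast excitation and inhibition at synapses, while auxiliary subunits set where a pore sits and how it gates. In T cells a small number of potassium channels hold the membrane potential that drives calcium entry after antigen recognition. Cxxc1 is a subunit of the Setd1 methyltransferase complexes, its zinc finger of the CXXC type recognises CpG dinucleotides that carry no methyl group, and the complexes trimethylate lysine 4 of histone H3 (H3K4me3), a mark found at active and CpG-rich promoters.

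The study immunoprecipitated chromatin with antibodies to Cxxc1 or H3K4me3 and sequenced it (ChIP-seq) in double-positive (DP) thymocytes, the T cell precursors of the thymus that carry CD4 and CD8 together. WT cells came from Cxxc1fl/fl mice and Cxxc1-deficient cells from Cxxc1fl/fl hCD2Cre mice, in which Cre is driven by human CD2 sequences and acts in lymphocyte precursors, before the DP stage. For the Cxxc1-deficient samples the genotype label reads Cxxc1+/- and the title reads KO, and the titles were followed. The list of Cxxc1 regions names no genotype and was assigned to WT from the study's methods, and the number of mice pooled for a library and their age are not given in the labels.

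Each of the 3 lists analysed (Cxxc1, WT H3K4me3 and Cxxc1-deficient H3K4me3) came from 1 library, so no difference between them has a replicate check and no p-value is given. The lists held 4352, 14237 and 2979 peaks, from libraries that the steps of the values place between 9.09 and 9.23 M tags for Cxxc1 and between 9.41 and 9.47 M tags for each H3K4me3 library. Signal is in RPM, tags in a 200-bp window scaled to M mapped tags, where M stands for mega, and a peak is given as the sum over its windows. A place with no peak has an unknown signal, not a signal of 0. As a check on the cell type, 4 of 7 DP thymocyte markers found (Tcf7, Cd8b1, Cd8a and Cd3e) had a WT H3K4me3 peak at most 1 kb from a start of transcription (TSS), whereas Cd4, Rag1 and Rag2 did not. The share over all genes was 32.5%. Of 8 markers of neurons and glia, Mbp alone had such a peak. In the wider gene region 5 of the 8 had a WT H3K4me3 peak, against 43.1% of all genes: Rbfox3 had 12, Mbp 5, Tubb3 2 and Eno2 and Gfap 1 each, together 21 peaks against 13.5 expected from length (1.56, 0.963 to 2.38). Snap25, Syt1 and Nefl had no peak of any list there. In the same wider region 5 of the 7 DP thymocyte markers had a WT H3K4me3 peak. These markers held 14 peaks against 1.92 expected from length (7.31, 3.99 to 12.3), and Tcf7 alone had 7. H3K4me3 peaks gather at promoters, so an expectation from length runs low for short genes (median region here 21220 bp). Intervals in parentheses after a share are 95% Wilson intervals and those after a ratio or a number of tags are 95% exact Poisson intervals. Both describe counting error in a single library.

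The strongest Cxxc1 peaks of the channel genes are shown first, as examples of sequence in listed peaks. The 5 sequences below are the 200-bp windows with the highest Cxxc1 signal within the strongest peak of a gene, for the 5 channel genes where that peak was strongest, on the plus strand of mm9, with every CG dinucleotide in capitals. The window of Kcnmb3, which encodes an auxiliary subunit of the calcium-activated potassium channel, is chr3:32391001-32391200, just upstream of the gene's start, with 0.7 RPM. The window of Cacna1d, the pore of an L-type calcium channel, is chr14:30895601-30895800 with 0.5 RPM, in a peak centred on an exon, and weaker peaks of this gene held single windows of up to 1.1 RPM. The window of Kcnj6, an inwardly rectifying potassium channel gated by G proteins, is chr16:95069801-95070000 in an intron with 0.5 RPM. The window of Kcna2, a voltage-gated potassium channel of axons, is chr3:106903401-106903600 with 0.9 RPM, upstream of the gene. The window of Kcnh1, a voltage-gated potassium channel of the ether-a-go-go type, is chr1:194050001-194050200 in an intron with 0.5 RPM.
Kcnmb3: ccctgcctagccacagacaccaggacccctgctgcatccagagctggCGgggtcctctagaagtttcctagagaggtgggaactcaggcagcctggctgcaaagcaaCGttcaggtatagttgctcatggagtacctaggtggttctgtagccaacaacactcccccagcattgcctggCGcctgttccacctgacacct
Cacna1d: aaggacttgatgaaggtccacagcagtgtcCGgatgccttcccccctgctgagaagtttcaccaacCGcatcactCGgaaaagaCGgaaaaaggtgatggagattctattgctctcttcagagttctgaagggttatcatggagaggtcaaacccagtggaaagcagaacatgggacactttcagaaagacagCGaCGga
Kcnj6: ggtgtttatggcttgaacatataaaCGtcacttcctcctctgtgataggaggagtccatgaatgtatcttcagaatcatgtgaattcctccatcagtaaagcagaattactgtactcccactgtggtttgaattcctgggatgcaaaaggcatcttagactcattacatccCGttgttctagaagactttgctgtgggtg
Kcna2: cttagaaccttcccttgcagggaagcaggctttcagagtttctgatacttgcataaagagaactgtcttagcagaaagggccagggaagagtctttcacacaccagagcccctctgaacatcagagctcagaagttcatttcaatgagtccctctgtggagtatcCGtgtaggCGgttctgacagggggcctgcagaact
Kcnh1: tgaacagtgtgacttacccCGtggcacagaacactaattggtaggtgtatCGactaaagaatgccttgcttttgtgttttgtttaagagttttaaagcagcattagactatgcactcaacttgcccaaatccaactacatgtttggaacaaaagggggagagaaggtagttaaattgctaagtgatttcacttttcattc

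These windows held 3 CG dinucleotides in Kcnmb3, 6 in Cacna1d and 2 each in Kcnj6, Kcna2 and Kcnh1. Their GC contents were 58.0%, 49.5%, 42.5%, 50% and 39.0%, in that order. They do not stand for all Cxxc1 peaks: the promoter peak of Kcnd3 held 151 CG over 1600 bp. Over all 309 listed Cxxc1 windows in channel gene regions the mean was 3.32 CG per window, and 82.5% held at least 1. The 12334 listed windows in the regions of other genes were alike, with a mean of 3.31 and 86.0% with at least 1. All 127552 windows of the channel gene regions, listed or not, had a mean of 1.71, with at least 1 CG in 70.6%. On average the listed windows in channel genes thus held more CG than all windows of these regions, with medians of 2 and 1. Of the listed windows 18.8% held 5 or more, against 6.88% of all windows. These values include promoter peaks rich in CG: those of Kcnd3, Kcnt1, Kcnab3 and Cacnb3 held 33.3 to 94.4 CG per kb. The promoter peaks of Kcna2 and Kcnmb3 held 10 and 14.6 CG per kb, and the median over all 64 peaks was 10. Windows away from promoters were not counted apart, so the size of any excess there is not given.

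Promoters with the highest summed WT H3K4me3 RPM reported for the channel genes are shown as the 200 bases before the most upstream TSS, on the strand of the gene, again with CG in capitals. Kcnn4, the calcium-activated potassium channel of lymphocytes and red cells, has the sequence at chr7:25155082-25155281 (plus strand). Kcnh3, a potassium channel of the forebrain, has that at chr15:99055092-99055291 (plus strand).
Kcnn4: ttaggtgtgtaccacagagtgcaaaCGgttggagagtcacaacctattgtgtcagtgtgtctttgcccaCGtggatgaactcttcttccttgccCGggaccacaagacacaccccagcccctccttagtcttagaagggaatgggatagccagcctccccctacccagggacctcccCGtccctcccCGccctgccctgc
Kcnh3: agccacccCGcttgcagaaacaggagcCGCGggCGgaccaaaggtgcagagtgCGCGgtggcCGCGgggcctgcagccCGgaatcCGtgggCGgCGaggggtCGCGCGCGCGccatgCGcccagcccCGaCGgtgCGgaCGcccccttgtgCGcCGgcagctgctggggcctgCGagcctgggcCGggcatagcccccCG

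Kcnn4 had the highest summed RPM at a promoter of all channel genes, with only 5 CG in this stretch and 58.5% GC, whereas Kcnh3 held 27 CG at 77.5% GC. The sum covers the whole Kcnn4 peak of 5800 bp, which runs into the gene past the 1 kb limit. Within 1 kb of their most upstream TSS, Kcnn4 had 33 CG and Kcnh3 132, beside a median of 68 over the channel genes and 62 over all genes.

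The question put to the Cxxc1 list was whether these long genes hold more peaks than their length would give. They did not: 64 Cxxc1 peaks had their midpoint in a channel gene region, defined as the gene body plus 10 kb upstream, where 63.6 were expected from length, a ratio of 1.01 (0.775 to 1.29). The expectation spreads the 2697 Cxxc1 peaks of all autosomal gene regions evenly over their bases. Channel gene regions made up 2.36% of those bases and held 2.37% of those peaks. Channel genes are long, with a median gene length of 51992 bp against 15199.5 bp over all genes, and 99 of them (57.9%) fell in the longest 3 of 10 length classes of equal size.

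Counted by gene, 42 of 171 channel genes (24.6%, 18.7 to 31.5) had a Cxxc1 peak in the region, against 11.5% of all genes. From the shares of other genes in the same 10 length classes, 33.9 channel genes were expected, and 36.6 with 20 classes. In the longest class, 24 of 59 channel genes (40.7%, 29.1 to 53.4) and 36.6% of other genes had a peak. The count of 42 was thus well above the share of all genes and near the number in genes of like length, which lay within the interval of the share. The ratio stayed near 1 for the gene body alone (0.921, 0.696 to 1.2) and for peaks over 1 kb from any TSS (1.02, 0.774 to 1.32). The 10 kb upstream of the genes held 8 peaks where 4.21 were expected, a ratio of 1.90 whose interval (0.820 to 3.74) includes 1.

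**Figure D1:**
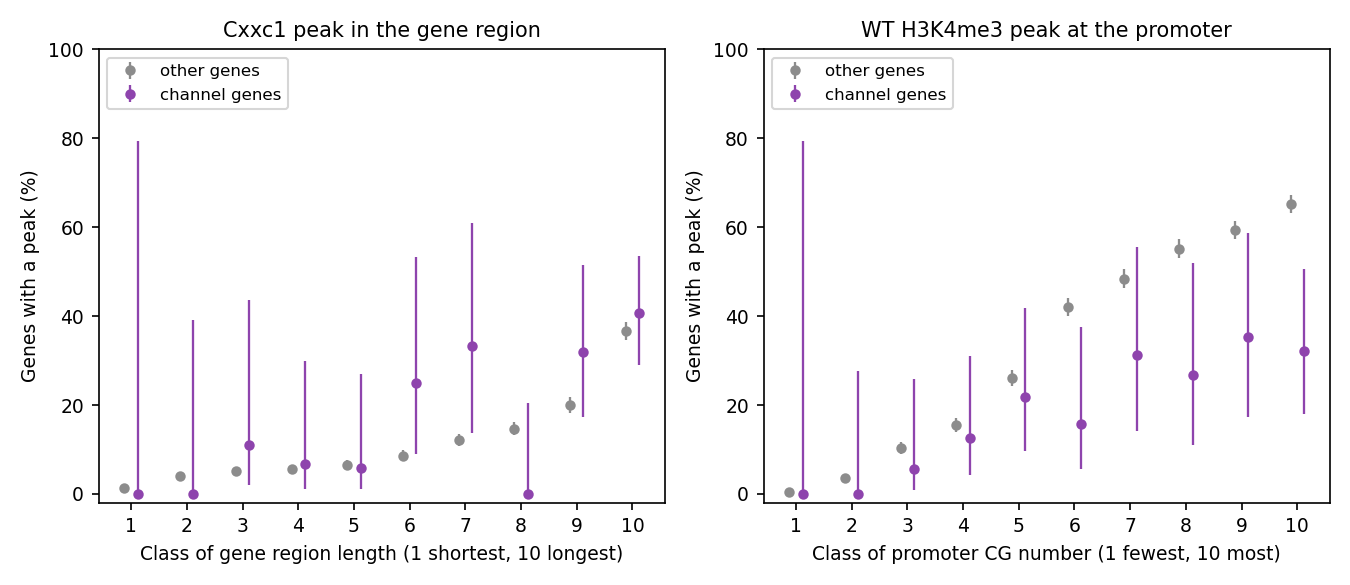
Share of genes with a Cxxc1 peak in the gene region by class of region length (left) and with a WT H3K4me3 peak at the promoter by class of promoter CG number (right), for channel genes (purple) and other autosomal genes (grey). Points are percentages with 95% Wilson intervals. In the longest class 40.7% of channel genes and 36.6% of other genes had a Cxxc1 peak, whereas in the class with most CG 32.1% of channel genes and 65.2% of other genes had a WT H3K4me3 promoter peak.

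The answer depends on what counts as the background. Against all autosomal bases rather than the bases of gene regions, 46.2 peaks were expected and the ratio was 1.39 (1.07 to 1.77). Channel gene regions also hold fewer CG dinucleotides for their length, 2% of those in all gene regions. With the expectation spread over CG dinucleotides in place of bases, 53.9 peaks were expected and the ratio was 1.19 (0.914 to 1.52).

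H3K4me3 peaks were fewer in channel gene regions than an even spread over bases would give. Such peaks gather at promoters: 49.9% of WT peaks in other gene regions had their midpoint there, against 10.6% of Cxxc1 peaks. Long genes have few starts for their length. The H3K4me3 ratios over all peaks, and their contrast with that of Cxxc1, therefore depend on gene length by construction. WT cells had 143 H3K4me3 peaks there against 280.3 expected, a ratio of 0.510 (0.430 to 0.601), and Cxxc1-deficient cells had 22 against 53.8, a ratio of 0.409 (0.256 to 0.619). Spread over CG dinucleotides, the ratios were 0.602 (0.507 to 0.709) and 0.482 (0.302 to 0.730). For WT peaks over 1 kb from any TSS the ratio was 0.736 (0.601 to 0.892). Over all peaks of the regions, the interval of the Cxxc1 ratio did not overlap those of the H3K4me3 ratios, whereas for peaks over 1 kb from any TSS the WT interval overlapped that of Cxxc1 (0.774 to 1.32).

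Lowest of the families in the Cxxc1 list were the GABA receptors, the chloride channels of fast inhibition. Their 16 genes held 0 peaks where 6.11 were expected, a ratio of 0 with an upper limit of 0.604. Counted by gene, 0 of 16 had a Cxxc1 peak, with an upper Wilson limit of 19.4%, against 11.5% of all genes. Their regions were also the poorest in CG, with a median of 6.20 CG per kb against 11.8 over the channel genes. The potassium channel genes held 32 peaks against 26.5 expected, a ratio of 1.21 (0.827 to 1.71). The calcium channel genes held 14 against 12.2, a ratio of 1.15 (0.627 to 1.93), and the sodium channel genes 4 against 3.2, a ratio of 1.25 (0.341 to 3.2). The glutamate receptor genes also held 14, against 15.6, a ratio of 0.896 (0.490 to 1.5). The intervals of these 4 families all include 1 and overlap each other. That of the GABA receptors overlapped those of the glutamate receptor and sodium channel genes, but not those of the potassium and calcium channel genes. Pore-forming members (0.975, 0.721 to 1.29) and auxiliary members (1.13, 0.630 to 1.86) were not told apart either.

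In the WT H3K4me3 list the GABA receptor genes were again lowest, with 4 peaks against 26.9 expected and a ratio of 0.149 (0.0405 to 0.380). The glutamate receptor genes had a ratio of 0.349 (0.223 to 0.519) and the potassium channel genes 0.531 (0.407 to 0.681). The calcium channel genes (0.744, 0.531 to 1.01) and the sodium channel genes (0.922, 0.491 to 1.58) were nearest to the number expected from length. This order also depends on gene length, and by share of genes with a WT promoter peak the sodium channel genes came last (2 of 15).

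**Figure D2:**
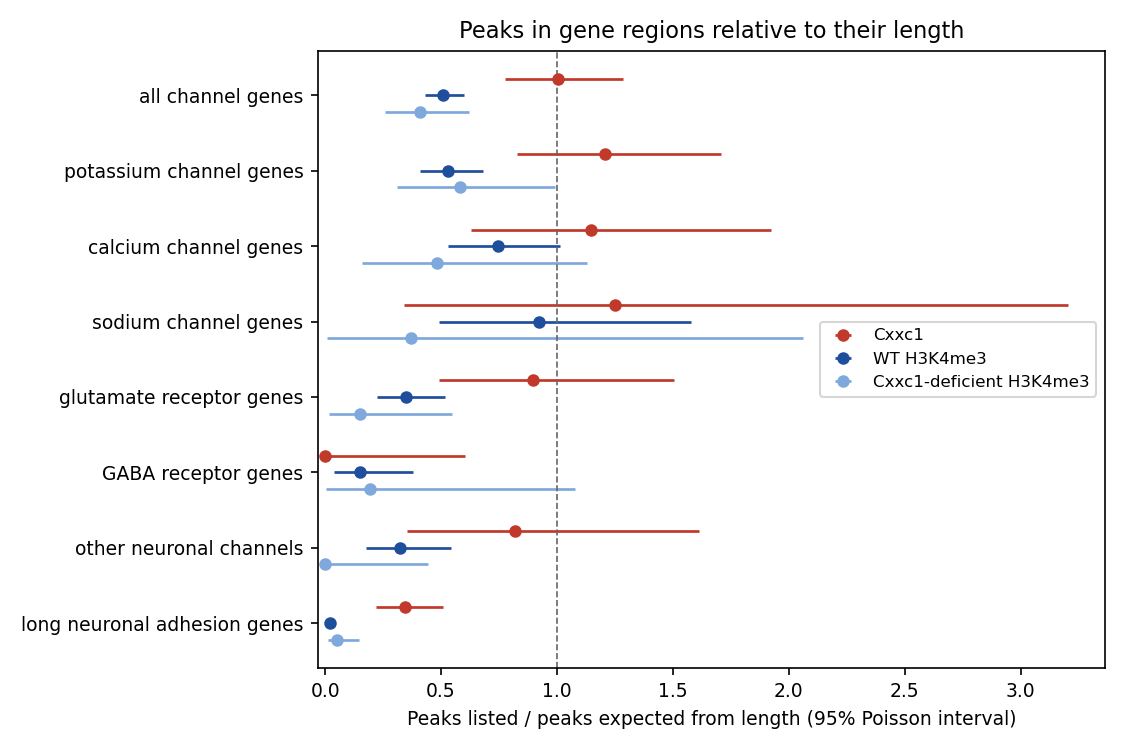
Peaks listed divided by peaks expected from length, for all channel genes, the 5 families and 2 lists of other neuronal genes. Points are the ratios in the Cxxc1 (red), WT H3K4me3 (dark blue) and Cxxc1-deficient H3K4me3 (light blue) lists, bars are 95% Poisson intervals and the dashed line marks a ratio of 1. Over all channel genes Cxxc1 lies at 1.01 and WT H3K4me3 at 0.510.

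Long genes were not all alike in the Cxxc1 list. Long neuronal adhesion and scaffold genes (26 symbols, such as Cntnap2 and Csmd1) had 24 Cxxc1 peaks against 69.9 expected, a ratio of 0.343 (0.22 to 0.511), whose interval lies below that of the channel genes. In the WT H3K4me3 list the adhesion genes had 6 peaks against 308.3 expected, a ratio of 0.0195, and none at a promoter. Their median region was 949264 bp, so an expectation from length runs high for a mark that gathers at promoters. Neuronal channels outside the symbol rule (24 genes found, such as Glra1 and Chrna7) had 8 Cxxc1 peaks against 9.79 expected (0.818, 0.353 to 1.61) and 14 WT H3K4me3 peaks against 43.1 (0.325, 0.177 to 0.545). Lymphocyte calcium entry and ion transport genes, such as Stim1 and Orai1, had 7 Cxxc1 peaks against 4.52 expected and 23 WT H3K4me3 peaks against 19.9. Of these 17 genes, 10 had a WT promoter peak (58.8%, 36.0 to 78.4), against 32.5% of all genes. In the Cxxc1-deficient list they had 12 peaks against 3.82 expected, a ratio of 3.14 (1.62 to 5.48), beside 0.409 for the channel genes. At promoters 3 of the 17 had a Cxxc1-deficient peak, against 6.1% of all genes. Of the 10 with a WT promoter peak, Stim1 alone also had one in Cxxc1-deficient cells, against 12.8% over all genes.

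Most channel genes with a Cxxc1 peak had a single peak: 129 had none, 27 had 1, 10 had 2, 4 had 3 and 1 had 5. At least 2 peaks were found in 15 channel genes (8.77%, 5.39 to 14.0) against 1.99% of all genes, and 9.32 were expected from 10 length classes or 11.2 from 20. At least 3 were found in 5 channel genes (2.92%, 1.26 to 6.66), among them Cacna1d, Grid1, Kcnip4 and Kcnq1, against 0.458% of all genes. From length classes 2.44 such genes were expected with 10 classes and 3.24 with 20. The delta glutamate receptor Grid1, which organises synapses, and Kcnip4, a calcium-binding partner of potassium channels, are among the 5 longest channel genes, and each had 3 Cxxc1 peaks. From length 2.85 were expected for Kcnip4 and 1.93 for Grid1. Further genes among the longest 5 had fewer than expected: Cacna2d3, an auxiliary calcium channel subunit, had 0 against 2.06, and the kainate receptor Grik2 had 1 against 1.74. The 5 longest together had 10 Cxxc1 peaks against 12.1, and the 10 longest 13 against 19.4. Grid1 and Kcnip4 had no H3K4me3 peak in either genotype.

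Kcnq1, a slow potassium channel of heart and epithelia, had 3 Cxxc1 peaks with a sum of 4.5 RPM where 0.821 were expected, with 2 WT and 3 Cxxc1-deficient H3K4me3 peaks. Kcnh1 had 2 Cxxc1 peaks with a sum of 5.6 RPM against 0.820 expected. Kcnj6 had 2 with a sum of 5.0 RPM against 0.643. The NMDA receptor subunit Grin2a had 2 with 4.1 RPM, and Kcnip1, a partner of potassium channels like Kcnip4, had 2 with 4.0 RPM. Kcnma1, the pore of the large calcium-activated potassium channel, the NMDA receptor subunit Grin2b, the kainate receptor Grik1, Kcnq3 and the auxiliary subunit Kcnab1 also had 2 each, with sums from 3.0 to 3.3 RPM.

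Cacna1d (ENSMUSG00000015968.9, chromosome 14, 30853135 to 31304342, minus strand) stood first in the Cxxc1 list, with 5 peaks and 11.6 RPM where 1.15 peaks were expected from its 451208 bp. Only 6 of all 21410 genes (0.028%) had 5 or more. Its peaks had 1.7, 3.1, 2.3, 2.7 and 1.8 RPM, or 16, 28, 21, 25 and 16 tags, and their midpoints lay between 289 and 426 kb downstream of the most upstream TSS, in the part of the gene towards its 3′ end. None was within 1 kb of any TSS of the gene. Cacna1d also had 8 WT H3K4me3 peaks with a sum of 14.7 RPM, of 1.4 to 2.6 RPM each, and 4 Cxxc1-deficient peaks of 1.2 to 3.1 RPM. None of these was at a promoter of Cacna1d, and the WT peak of 1.4 RPM lay at the promoter of its neighbour Dcp1a. The Cxxc1 peak at 30985801 to 30988000 overlapped the Cxxc1-deficient H3K4me3 peak at 30984601 to 30987200, the only such overlap in any channel gene. No Cxxc1 peak of Cacna1d overlapped a WT H3K4me3 peak.

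**Figure D3:**
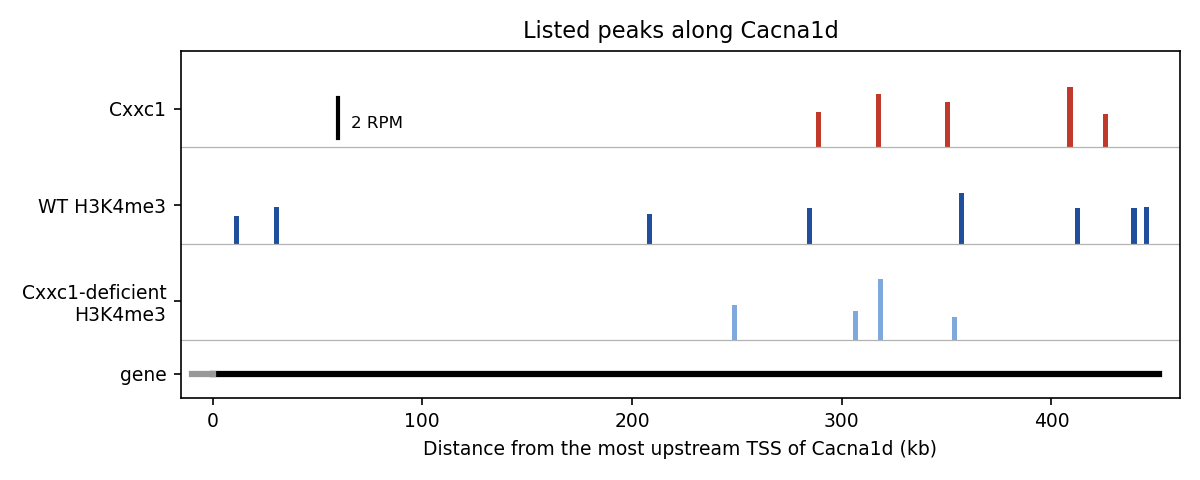
Listed peaks along Cacna1d, by distance in kb from its most upstream TSS, in the Cxxc1, WT H3K4me3 and Cxxc1-deficient H3K4me3 lists. The height of a bar is the RPM of the peak (scale bar 2 RPM), the black line is the gene body and the grey line the 10 kb upstream. The 5 Cxxc1 peaks lie between 289 and 426 kb.

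Within the genes the Cxxc1 peaks were spread along the body. Of the 64 peaks, 49 (76.6%) had their midpoint in an intron, 5 in an exon (Cacna1a, Cacna1d, Kcnj1, Kcnj10 and Kcns3), 6 within 1 kb of a TSS and 4 outside gene bodies. Of the 56 in the body, cut into 4 equal stretches, 16 lay in the stretch nearest the TSS, then 11, 18 and 11. Their median strength was 1.7 RPM, or 16 tags, with a range of 1.1 to 3.9 RPM, beside a median of 1.8 RPM over 2633 peaks of other gene regions. With so few tags in a peak, differences in strength among channel genes were mostly within counting error: the strongest peak, in Kcnmb3, rested on 36 tags (25.2 to 49.8) and that of rank 5, in Kcnh1, on 27 (17.8 to 39.3). Of the 64 peaks, 3 (4.69%, 1.61 to 12.9) overlapped a WT H3K4me3 peak, in Kcna2, Kcnab3 and Kcnh3, against 8.32% of the peaks of other gene regions.

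At promoters, 7 channel genes (4.09%, 2 to 8.21) had a Cxxc1 peak within 1 kb of a TSS, against 2.03% of all genes, with 4.77 expected from length classes and 3.92 from classes of promoter CG number. The potassium channels supplied 6 of them and the calcium channels 1. Kcnmb3 had 3.9 RPM at chromosome 3, 32390801 to 32393600. Kcnt1, a sodium-activated potassium channel, also had 3.9 RPM, in peaks of 1.6 and 2.3 RPM at different starts of the gene. Kcna2 had 2.9 RPM. Cacnb3, an auxiliary calcium channel subunit also used by T cells, had 2.2 RPM. Kcnd3, a channel of transient potassium current, had 2.1 RPM over 151 CG, and the auxiliary subunit Kcnab3 had 1.5 RPM over 58 CG. The peaks of Kcna2 and Kcnmb3 held 12 and 41 CG, while the 1 kb to either side of the most upstream TSS held 110 CG in Kcna2 and 22 in Kcnmb3. The nearest peak beyond the 1 kb limit was 2903 bp from a TSS of Scn4a (2.5 RPM) and the farthest within it was that of Kcna2 at 685 bp. At the 10 kb limit, the farthest peak within it was 6475 bp upstream of Kcnma1 (1.6 RPM) and the nearest beyond it 10723 bp upstream of Scn10a (1.9 RPM).

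A WT H3K4me3 peak lay at the promoter of 36 of 171 channel genes (21.1%, 15.6 to 27.8), against 32.5% of all genes. From length classes 63.0 channel genes were expected and from classes of promoter CG number 64.3, so the count was lower than in other genes of like length or like promoter CG. For all CG classes the CG was counted at the most upstream TSS, whereas a peak at any TSS of the gene counted. Channel gene promoters were not poor in CG: 95 of them (55.6%) fell in the upper 5 of 10 classes. In the class with most CG, 9 of 28 channel genes (32.1%, 17.9 to 50.7) had a WT promoter peak against 65.2% of other genes. In the longest length class, 6 of 59 had one (10.2%, 4.74 to 20.5) against 36.5% of other genes.

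By family, a WT promoter peak was found in 8 of 21 glutamate receptor genes, 6 of 25 calcium channel genes, 3 of 16 GABA receptor genes, 17 of 94 potassium channel genes and 2 of 15 sodium channel genes. The Wilson intervals of the families overlapped, from 38.1% (20.8 to 59.1) in the first to 13.3% (3.74 to 37.9) in the last. The 8 genes counted as glutamate receptors took in Grid2ip, Grina and Grinl1a, which are not channels. They also took in Grin2d, whose promoter is shared with another gene. Auxiliary members had a peak in 11 of 37 genes (29.7%, 17.5 to 45.8) and the mostly pore-forming others in 25 of 134 (18.7%, 13.0 to 26.1). Grid2ip and Grinl1a, which are not pores, are among the 25. Where a promoter peak was listed its strength was near that elsewhere, with a median of 2.7 RPM and a range of 1.6 to 7.7 RPM against a median of 2.6 RPM over all genes.

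Kcnn4 came first with 7.7 RPM in a peak of 73 tags at chromosome 7, 25154001 to 25159800. That peak was 5800 bp wide and its highest window had 0.7 RPM, below the 1 RPM of the highest windows of Kcnk5 and Kcnmb4. Its rank by summed RPM thus reflects width more than height. Kcnh3 had 5.3 RPM. The NMDA receptor subunits Grin2c and Grin2d and the calcium-binding channel partner Kcnip3 each had 5.0 RPM, and Kcna2 had 4.9 RPM. The promoter of Grin2d overlaps that of Kdelr1, which encodes a receptor that returns proteins to the endoplasmic reticulum, so its peak cannot be assigned to either gene. Kcnq5, a slow potassium channel of neurons, had 4.6 RPM. The auxiliary subunit Kcnab2 had 4.0 RPM at a promoter shared with Nphp4. The auxiliary calcium channel subunit Cacng4 and the potassium channel Kcnk7 had 3.9 RPM each, and Kcng3, a silent subunit that modifies other potassium channels, had 3.8 RPM. Without the 5 channel genes whose promoter overlaps that of another gene, 34 of 166 (20.5%) had a WT promoter peak.

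Channel genes that are known to act in lymphocytes were in part among those with a promoter peak. Of 7 such genes on autosomes, 4 had a WT promoter peak (57.1%, 25 to 84.2), against 32.5% of all genes and 21.1% of channel genes. They were Kcnn4 with 7.7 RPM, the background potassium channel Kcnk5 with 3.3 RPM, Kcna3, the voltage-gated potassium channel of T cells, with 2.3 RPM, and Cacnb3 with 1.9 RPM. Cacna1d, Cacna1e and Cacnb4 had none. These 7 genes held 8 Cxxc1 peaks where 2.92 were expected (2.74, 1.18 to 5.39). Of the 8, 5 were those of Cacna1d, the channel gene with most Cxxc1 peaks, and the others were in Cacna1e, Cacnb3 and Cacnb4. The ratio thus rests mainly on Cacna1d, in a list chosen with earlier results of these data known, and says nothing about the group. Kcna3, Kcnn4 and Kcnk5 had no Cxxc1 peak.

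**Figure D4:**
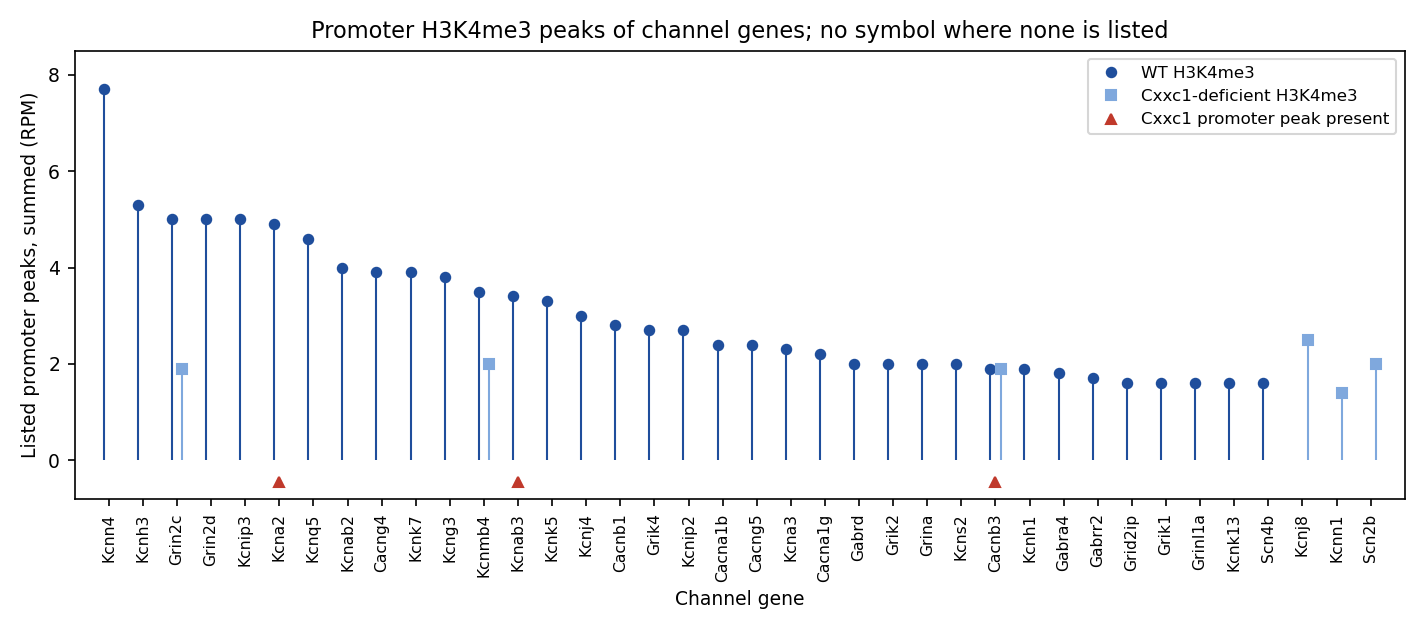
Summed RPM of H3K4me3 peaks within 1 kb of a TSS for channel genes with such a peak in WT (dark blue circles) or Cxxc1-deficient (light blue squares) cells, with red triangles below the axis for genes of the plot that had a Cxxc1 promoter peak. Each value is from 1 library, and a missing symbol means that no peak was listed. Kcnn4 stands first at 7.7 RPM, and 3 genes (Grin2c, Kcnmb4 and Cacnb3) have a value in both genotypes. A few genes are not shown.

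In Cxxc1-deficient cells 7 channel genes (4.09%, 2 to 8.21) had an H3K4me3 promoter peak, against 6.1% of all genes and with 11.8 expected from length classes and 12.1 from promoter CG classes. None of the 59 channel genes of the longest class was among them, with an upper Wilson limit of 6.11%, against 6.48% of other genes of that class. Of the 36 with a WT promoter peak, 3 (8.33%, 2.87 to 21.8) also had one in Cxxc1-deficient cells, against 12.8% over all genes, a share that lies within the interval. The 33 others therefore had no listed promoter peak in Cxxc1-deficient cells, as was the case for most genes in a list that held 2979 peaks against 14237.

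The 3 genes with a promoter peak in both genotypes were Grin2c, Kcnmb4 and Cacnb3. Grin2c had 5.0 RPM (47 tags, 34.5 to 62.5) in WT and 1.9 RPM (18 tags, 10.7 to 28.4) in Cxxc1-deficient cells. These tag intervals do not overlap, but the sums cover unlike widths, 3600 bp in WT and 1400 bp in Cxxc1-deficient cells. The highest window had 0.6 RPM in both, and signal outside the shorter peak is unknown. The sums thus do not settle whether the signal differed. Kcnmb4, an auxiliary subunit of the calcium-activated potassium channel in brain, had 3.5 RPM (33 tags, 22.7 to 46.3) and 2.0 RPM (19 tags, 11.4 to 29.7), with intervals that overlap. In both genes the peaks of the genotypes overlapped each other.

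Cacnb3 had 1.9 RPM in each genotype (18 tags), but at different places. On chromosome 15 its Cxxc1-deficient peak ran from 98462001 to 98463400, its Cxxc1 peak from 98463401 to 98465200 and its WT H3K4me3 peak from 98465201 to 98466600. The peaks of the 3 lists thus lay side by side without overlap, each within 1 kb of a TSS, and Cacnb3 was the only channel gene with a promoter peak in all 3 lists. A Cxxc1 and a WT H3K4me3 promoter peak together were found in Cacnb3, Kcna2 and Kcnab3, 3 of 171 channel genes against 0.934% of all genes.

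In 4 channel genes a promoter peak was listed in Cxxc1-deficient cells and not in WT cells, against 1.96% of all genes. Among them Kcnj8, a potassium channel closed by ATP, had 2.5 RPM, the sodium channel auxiliary subunit Scn2b 2.0 RPM and the calcium-activated potassium channel Kcnn1 1.4 RPM. In Kcnn1 this peak overlapped a WT peak of 4.3 RPM that began 1107 bp from the nearest TSS, just past the 1 kb limit. With a limit of 5 kb, 9 of 46 channel genes with a WT promoter peak (19.6%, 10.7 to 33.2) also had one in Cxxc1-deficient cells, against 15.0% of all genes.

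A larger share of the WT H3K4me3 peaks of channel genes than of other genes lay at no promoter, although such distant peaks were also fewer than length would give (a ratio of 0.736). No share was computed for genes of like length, and channel genes, being long, have more sequence away from a start. Of the 148 WT peaks that touched a channel gene region, 39 were at a promoter of that gene, 9 at a promoter of a neighbour alone and 100 at neither (67.6%, 59.7 to 74.6), against 45.0% at no promoter over the peaks of other gene regions. Examples chosen after their values were seen are Cacna1a, the pore of the calcium channel of presynaptic terminals, with 7 WT peaks and 17.6 RPM, and the kainate receptor Grik5 with 5 and 9.6 RPM, neither with a promoter peak. Of the 22 Cxxc1-deficient peaks, 7 were at a promoter of the gene, 2 at that of a neighbour and 13 at neither (59.1%, 38.7 to 76.7), against 49.8% in other gene regions, which lies within the interval. In Cxxc1-deficient cells 6 of the 22 overlapped a WT peak (27.3%, 13.2 to 48.2), against 43.5% in other gene regions. Channel gene regions shared 25 windows between the WT and Cxxc1-deficient lists, with mean values of 0.364 and 0.348 RPM. WT was higher in 9 of them, Cxxc1-deficient in 12, and 4 were equal. The 4581 shared windows elsewhere had means of 0.543 and 0.446 RPM, with WT higher in 2180, Cxxc1-deficient in 1359 and 1042 equal.

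Channel genes with a Cxxc1 peak carried a WT promoter peak in 11 of 42 cases (26.2%, 15.3 to 41.1) and those without in 25 of 129 (19.4%, 13.5 to 27.0), a difference within the intervals. Over other genes the shares were 44.4% with and 31.0% without a Cxxc1 peak. The channel genes with a Cxxc1 peak were also longer, with a median region of 200470 bp against 44815 bp for those without. In 31 channel genes (18.1%, 13.1 to 24.6) there was a Cxxc1 peak and no WT promoter peak, against 6.41% of all genes. No number expected from length was computed for this count, and these genes are longer than most. In 82 of the 171 (48.0%) there was no peak of any list, against 50.2% of all genes.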

How the data were processed

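DP thymocytes were assayed by Cxxc1 and H3K4me3 ChIP-seq in WT and Cxxc1-deficient mice, with 5 libraries in all. The authors deposited 3 lists of 200-bp windows with values in RPM, rounded to 1 decimal, for regions called by SICER. The submitters' processing notes name CASAVA 1.8.2 and SICER 1.1. Per the study's methods, uniquely mapped 50-bp reads on mm9 were used, with input and Cxxc1-deficient ChIP as controls. Which of these controls was used for each H3K4me3 list, the aligner and the treatment of duplicates are not given in the sources used here, and these affect which regions were called. Cxxc1 ChIP of Cxxc1-deficient cells and input were not analysed here.

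Windows at most 2 missing windows apart were joined into peaks. Tag numbers are RPM divided by the value of 1 tag, inferred from the steps of the deposited values. Genes were those of GENCODE vM1 on the assembly of mm9, whose chromosome lengths match the files. Peaks were counted in gene regions by midpoint and assigned to genes and promoters by an overlap of at least 1 bp, in Python 3.11.15 with numpy 2.4.6, pandas 2.3.3 and scipy 1.17.1 (bedtools 2.31.1 as a check). Functions were tested on simulated data. With 1 library per list no test was run.

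Named genes were those with a Cxxc1 or a Cxxc1-deficient promoter peak, the 10 highest by Cxxc1 RPM or peak number, the 12 highest by WT promoter RPM, the 5 longest, those known in lymphocytes and those at the distance limits, with others named as examples or as members of a count. A few genes are counted but not reported by name here. The members and lists were chosen with earlier results of these data known.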

Additional observations from a re-analysis of the deposited data

How the results depend on the processing

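No paired analysis was possible because there was 1 library in each group. Of 33 alternative values for 7 results, 28 stayed within the counting interval of the reported value. The ratio of Cxxc1 peaks to the number expected from length ranged from 0.921 to 1.39 over 12 alternatives, and 1.39, the value with the expectation taken from all autosomal bases, was the only one outside the interval. The share of channel genes with a Cxxc1 peak in the region was 32.2% with 50 kb upstream (19.0% of all genes) and 14.6% with the stronger 50% of the list (6.56% of all genes). With the stronger 50% of each list, the promoter share was 12.9% in WT (20.8% of all genes) and 1.17% in Cxxc1-deficient cells (3.49%). These 4 shares follow by construction from a wider region or fewer peaks. The expectation from CG dinucleotides and the shares without shared promoters were chosen after seeing the data. Peaks of about 16 tags limit comparisons of strength between genes, and signal below the calling threshold is unknown.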
